A study of Mus musculus with 12 samples.

Results

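The inner root sheath keratins Krt25, Krt27, Krt28 and Krt71 were followed across sorted mouse skin cells as 4 of the 18193 genes measured. Each was read from the single-gene probe set of highest mean that the platform annotation gives it, and each of the 4 has 1 such probe set: 1418173_at for Krt25, 1449378_at for Krt27, 1430132_at for Krt28 and 1448457_at for Krt71. The genes were picked because they were higher in the suprabasal fractions of these same arrays, so their differences between layers describe the choice and carry no test. Only their differences between label-retaining and other cells within a layer, which the choice did not use, were tested.

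Keratins are the intermediate filament proteins of epithelial cells, and a type I and a type II keratin pair to form each filament. Krt25, Krt27 and Krt28 are type I keratins and Krt71 is a type II keratin, and all 4 are known for the inner root sheath, the layered sleeve that forms around the growing hair shaft and breaks down above it. In telogen, the resting phase of the hair cycle, the lower follicle has regressed and no hair is being built.

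The study used expression arrays on cells sorted by flow cytometry from back skin of mice with 4 transgenes: K5-tTA with its target pTRE-H2B-GFP, and K14-CreER with the reporter Rosa-tdTomato. All groups share this genotype, in which the keratin 5 promoter drives tTA and the keratin 14 promoter drives CreER, so both drivers act in basal keratinocytes of epidermis and follicle alike. All groups also share doxycycline in the food at 1 g/kg for 2 weeks, which shuts off the H2B-GFP label, tamoxifen at 75 mg/kg once, and death 1 week later at second telogen. The 12 arrays fall into 5 groups: LRC and non-LRC cells of BL (3 arrays each), LRC and non-LRC cells of SL (2 arrays each) and GL cells (2 arrays). BL, SL and GL are read here as the basal, spinous and granular layers and LRC as label-retaining cells, readings that rest on what is known of the published study, since the labels give only the letters. Whether each sample came from its own mouse is not stated, so p-values measure the spread between these samples alone, and the number of arrays limits the precision of every value. Each sample is a bulk of sorted cells, in which fewer cells of a type and less RNA per cell cannot be told apart.

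The layer labels were checked against marker lists. Of 6 granular markers, 5 rose in SL over BL (Ivl, Flg, Casp14, Dsc1 and Klk7) and 2 rose in GL over SL (Klk7 and Lor). Of 6 basal markers, 3 fell in SL against BL and 3 fell in GL against SL (Col17a1, Itga6 and Itgb4 in each comparison). The basal keratin Krt5 lay between 20559 and 22513 intensity units in GL, 18786 and 22366 in SL and 19634 and 29497 in BL. Krt14, also a basal marker, read 24820 and 26667 in GL, 18023 to 24108 in SL and 22527 to 25392 in BL. Its probe set is marked as possibly cross-hybridising. Of the spinous markers, Krt77 and Sbsn rose in SL over BL, while Krt1 and Krt10 were not called. Krt10 read 26712 to 28834 in BL LRC, 17805 to 21661 in BL non-LRC, and 21161 and 22995 in GL. In SL it read 29532 and 32913 in LRC and 20515 and 21769 in non-LRC. The calls on Lor in GL and on Itgb4 in SL were lost in 5 and 6 of 12 fits that left out 1 array (adjusted p up to 0.481 and 0.146, limma). Tests were limma's moderated test with Benjamini-Hochberg adjustment over 18193 genes at 0.05. The arrays also fall into a set of 4 with low signal of the BioB hybridisation control (467 to 524 intensity units: BL LRC 1, BL non-LRC 1 and both SL non-LRC arrays) and a set of 8 with high signal (2885 to 3931). This set is balanced over the label in BL but coincides with it in SL.

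The promoters are shown because the members were all picked for being higher in the suprabasal fractions, and no link between motifs and levels was tested. All 4 matched the RefSeq promoter table of build GRCm38.p6, and the 250 bases before each annotated start are printed 5′ to 3′ on the gene's own strand, which is the minus strand for each gene (Krt25 chr11:99322952-99323201, Krt27 chr11:99351119-99351368, Krt28 chr11:99374904-99375153, Krt71 chr15:101743098-101743347). Capitals mark the letters TATAAA and AGATAA.
Krt25: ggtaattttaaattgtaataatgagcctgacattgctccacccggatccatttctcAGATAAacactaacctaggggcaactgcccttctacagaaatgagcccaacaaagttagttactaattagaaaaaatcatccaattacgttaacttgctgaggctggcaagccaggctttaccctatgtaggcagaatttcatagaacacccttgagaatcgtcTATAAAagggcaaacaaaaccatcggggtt
Krt27: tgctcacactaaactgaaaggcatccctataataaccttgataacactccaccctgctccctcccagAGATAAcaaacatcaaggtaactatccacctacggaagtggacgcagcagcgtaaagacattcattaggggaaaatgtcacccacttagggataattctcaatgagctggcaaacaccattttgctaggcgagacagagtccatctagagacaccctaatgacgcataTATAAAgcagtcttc
Krt28: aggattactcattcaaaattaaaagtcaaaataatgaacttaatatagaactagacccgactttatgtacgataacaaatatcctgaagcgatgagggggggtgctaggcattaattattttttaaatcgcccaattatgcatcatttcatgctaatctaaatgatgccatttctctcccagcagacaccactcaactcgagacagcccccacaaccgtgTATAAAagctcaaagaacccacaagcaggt
Krt71: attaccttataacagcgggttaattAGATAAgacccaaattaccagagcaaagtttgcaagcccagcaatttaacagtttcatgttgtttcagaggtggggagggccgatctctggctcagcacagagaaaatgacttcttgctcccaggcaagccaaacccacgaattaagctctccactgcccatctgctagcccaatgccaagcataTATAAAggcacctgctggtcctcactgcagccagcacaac

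Motifs were searched on both strands in windows of 300 bases, from 250 before to 50 after the start, and set against all 32851 such windows of the table. The letters TATAAA, core of the box of that name, occurred in 4 of 4 members and in 13.6% of all windows. The match began 30 bases before the start in Krt25, 15 in Krt27, 30 in Krt28 and 40 in Krt71. A match on the gene's strand that began 20 to 40 bases before the start was present in 3 of 4 members and in 1.99% of all windows. AGATAA, letters that GATA factors can bind, occurred in 3 of 4 members, without Krt28, and in 11.2% of all windows. CANNTG, the E-box, was in 3 of 4 members, without Krt27, and in 72.3% of windows. TTTATN, letters found in Hox sites, was in 4 of 4 members and in 39.9% of windows. Every TATAAA is also a TTTATN match on the other strand, so the TATAAA matches fix this count and nothing is read from it. In Krt27 and Krt71 that match is the only one. A LEF/TCF core, CTTTGA, was in 1 member, Krt28, and in 16% of windows, and TGANTCA, the AP-1 motif, was in 0 members and 7.81% of windows.

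The background of an array was set at percentile 95 of its 27 bacterial control probe sets, which came to 22.4 to 42.6 intensity units. A fold is a lower bound, written as at least, where none of the arrays on one side passed it. Levels of different probe sets are not compared with each other.

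Krt25, a type I keratin of all layers of the inner root sheath, read 78.6, 30.3 and 40.3 intensity units on the 3 BL LRC arrays and 25.6, 35.7 and 38.5 on the 3 BL non-LRC arrays. It read 153 and 557 in SL LRC and 275 and 333 in SL non-LRC, and 924 and 1371 in GL. The layers did not overlap: every SL array was above every BL array, and both GL arrays were above every SL array. In BL it was near background, above it on 4 of 6 arrays. On the log2 scale its mean was 10.14 ± 0.40 in GL (SD, n = 2), 8.21 ± 0.77 in SL (SD, n = 4) and 5.28 ± 0.56 in BL (SD, n = 6).

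Krt71, the type II keratin of the inner root sheath and a usual partner of Krt25 and Krt27, read 105, 70.0 and 82.1 intensity units in BL LRC and 34.2, 8.86 and 49.8 in BL non-LRC. It read 300 and 559 in SL LRC and 201 and 376 in SL non-LRC, and 814 and 1035 in GL. As for Krt25, no array of a higher layer was below any array of the layer under it. Its log2 mean was 9.84 ± 0.24 in GL (SD, n = 2), 8.39 ± 0.62 in SL (SD, n = 4) and 5.51 ± 1.29 in BL (SD, n = 6).

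Krt27, a type I keratin of the inner root sheath, read 23.2, 1 and 25.7 intensity units in BL LRC and 2.34, 1.80 and 3.18 in BL non-LRC, all below background, where a value of 1 is the lowest in the table. It read 101 and 260 in SL LRC and 62.3 and 319 in SL non-LRC, and 236 and 672 in GL. All 4 SL and both GL arrays were above background, and 1 GL array lay inside the SL range. Its log2 mean was 8.64 ± 1.07 in GL (SD, n = 2) and 7.24 ± 1.12 in SL (SD, n = 4).

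Krt28, a type I keratin of the inner root sheath, read 28.6, 5.90 and 4.80 intensity units in BL LRC and 7.31, 4.66 and 7.38 in BL non-LRC. It read 5.90 and 22.7 in SL LRC, 143 and 83.5 in SL non-LRC, and 477 and 282 in GL. It differed from the other 3 members in that both SL LRC arrays were below background. All 6 BL arrays were below background too, as they were for Krt27. The 2 SL non-LRC arrays and both GL arrays were above background. Its log2 mean was 8.52 ± 0.54 in GL (SD, n = 2).

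**Figure D1:**
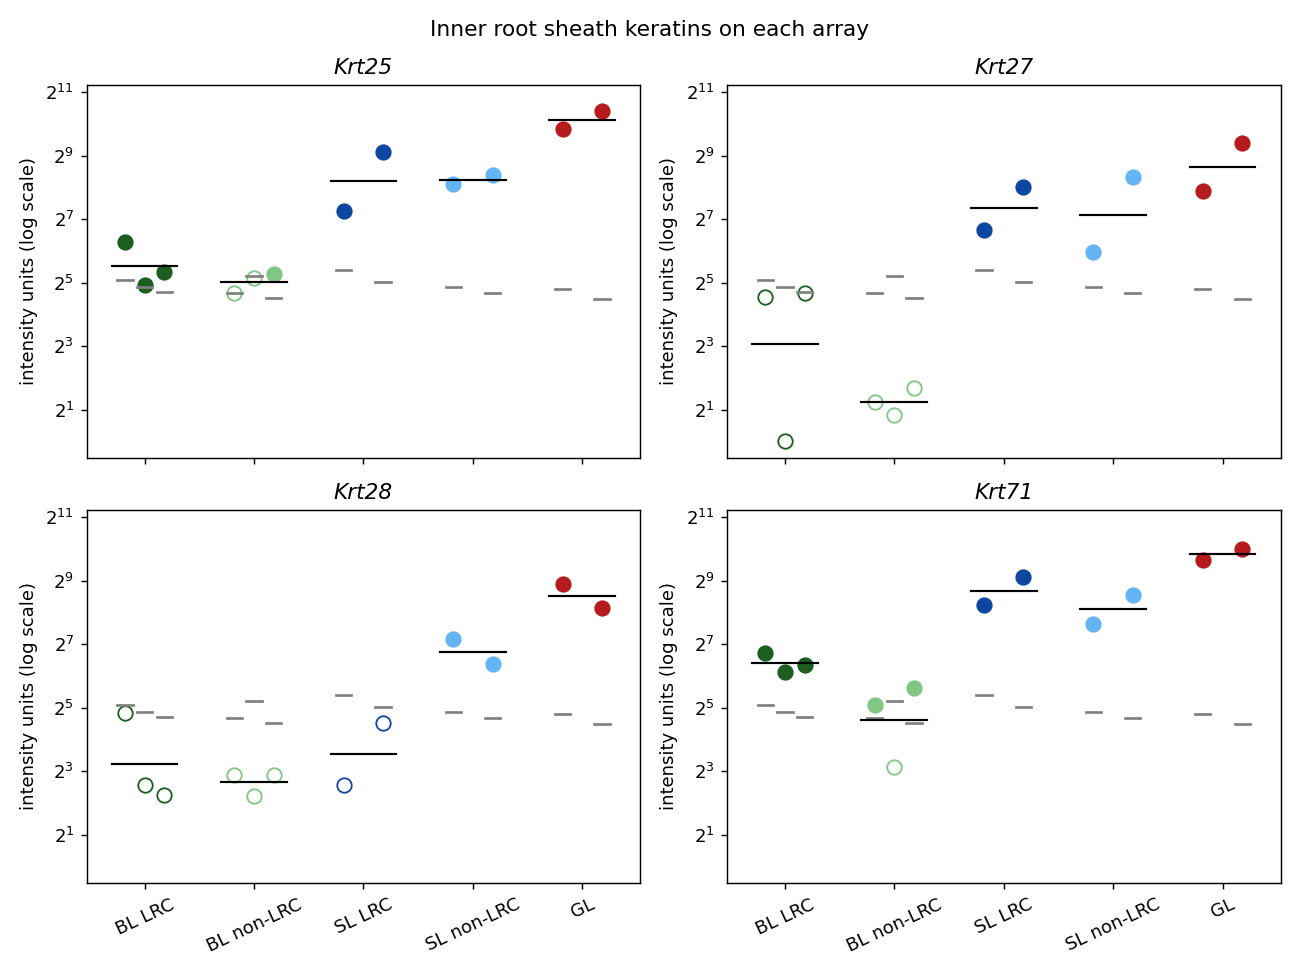
Intensity of the 4 inner root sheath keratins on each of the 12 arrays (log axis), by sorted group. Each point is 1 array, filled where it is above that array's background (grey tick) and open where it is not, and black bars are geometric means. GL arrays lie highest for Krt25, Krt28 and Krt71, and only Krt28 has open points for both SL LRC arrays.

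Krt25 was 7.66-fold higher in SL than in BL, a log2 difference of 2.94, and Krt71 was 7.33-fold higher, a log2 difference of 2.87. Krt27 was at least 5.25-fold higher in SL and Krt28 at least 1.23-fold higher. SL and BL arrays did not overlap for 3 of the 4 members, all except Krt28, where 2.13% of all genes had every SL array above every BL array. The choice of members fixes this count, and nothing is read from it. For Krt25 and Krt71 the difference could be read within each array set. The SL arrays of high BioB signal are the SL LRC arrays and those of low signal the SL non-LRC arrays, while BL arrays of each set mix both labels. Set and label therefore cannot be told apart in these values. SL minus BL on the log2 scale was 3.02 for Krt25 and 3.36 for Krt71 among arrays of high BioB signal, and 2.75 and 2.19 among those of low signal. With log2(value + 32) in place of log2 of the value, SL minus BL was smaller for each member: 2.21 for Krt25, 2.14 for Krt71, 2.23 for Krt27 and 0.97 for Krt28.

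Between GL and SL, Krt25 was 3.79-fold higher in GL, Krt71 2.74-fold higher and Krt27 2.64-fold higher, log2 differences of 1.92, 1.45 and 1.40. Krt28 had the log2 difference of 3.37, with 2 of the 4 SL arrays above background. That difference was 2.31 with log2(value + 32), 4.05 with the array set as a term, and 2.88 to 3.85 when 1 array was left out. GL and SL arrays did not overlap for 3 of 4 members, all except Krt27, where 13% of all genes had both GL arrays above all SL arrays. Both GL arrays belong to the set of high BioB signal, whose SL arrays are the SL LRC arrays alone. Within that set GL minus SL LRC was 1.95 for Krt25, 1.16 for Krt71 and 1.30 for Krt27 on the log2 scale. For Krt28, which was below background on both SL LRC arrays, it was 4.99. When 1 array was left out, Krt27's GL minus SL difference was lowest without GL 2, at 0.64, and highest without GL 1, at 2.15, and it was 0.81 without SL non-LRC 1. Against BL, the fold in GL was 29.0 for Krt25 and 20.1 for Krt71, at least 13.8 for Krt27 and at least 12.7 for Krt28. All 4 members had both GL arrays above all BL arrays, as did 13.6% of all genes.

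Some markers of myeloid cells, T cells and melanocytes rose in GL over SL, and no gene of these lists passed the test as higher in SL over BL. Summed over 6 myeloid markers, the signal was 22401 to 46399 intensity units in GL, against 890 to 6724 in SL, a range that covers the 893 to 2291 of BL. Of these 6, 5 rose in GL over SL and 0 were called in SL over BL by limma. Summed T cell markers were 7325 to 23087 in GL and 2056 to 4231 in SL, and in BL they were 3772 to 7772. Most of the BL sum was 1 marker, Thy1, which read 3144 to 7216 there. Cd3g read 3389 and 8775 in GL, 184 to 415 in SL and 216 to 471 in BL. Cd3e read 1894 and 6784 in GL, 154 to 418 in SL and 152 to 486 in BL. Of 4 T cell markers measured, 3 rose in GL over SL, and of 7 melanocyte markers 2 did (Dct and Tyrp1). The other T cell marker, Thy1, fell by 1.39 on the log2 scale in SL against BL (adjusted p = 0.0117, limma), a call lost without SL LRC 2 or SL non-LRC 2 (adjusted p up to 0.0820, limma), and it was the sole call of these 3 lists there. Of 6 fibroblast markers, 0 were called in either layer comparison by limma, but their summed signal was 703 to 835 intensity units in GL. That sum was 108 to 547 in SL and 105 to 403 in BL. Among them, Dcn read 616 and 435 in GL, 3.60 to 423 in SL and 3.48 to 79.5 in BL. The calls on Cd207, a myeloid marker, and Tyrp1 were lost in 2 and 5 of 12 fits that left out 1 array (adjusted p up to 0.195 and 0.199, limma). The myeloid sum was 46399 on GL 1 and 22401 on GL 2. Krt28 was likewise higher on GL 1, while Krt25, Krt27 and Krt71 were higher on GL 2. The part of these markers in the members' differences was not tested.

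**Figure D2:**
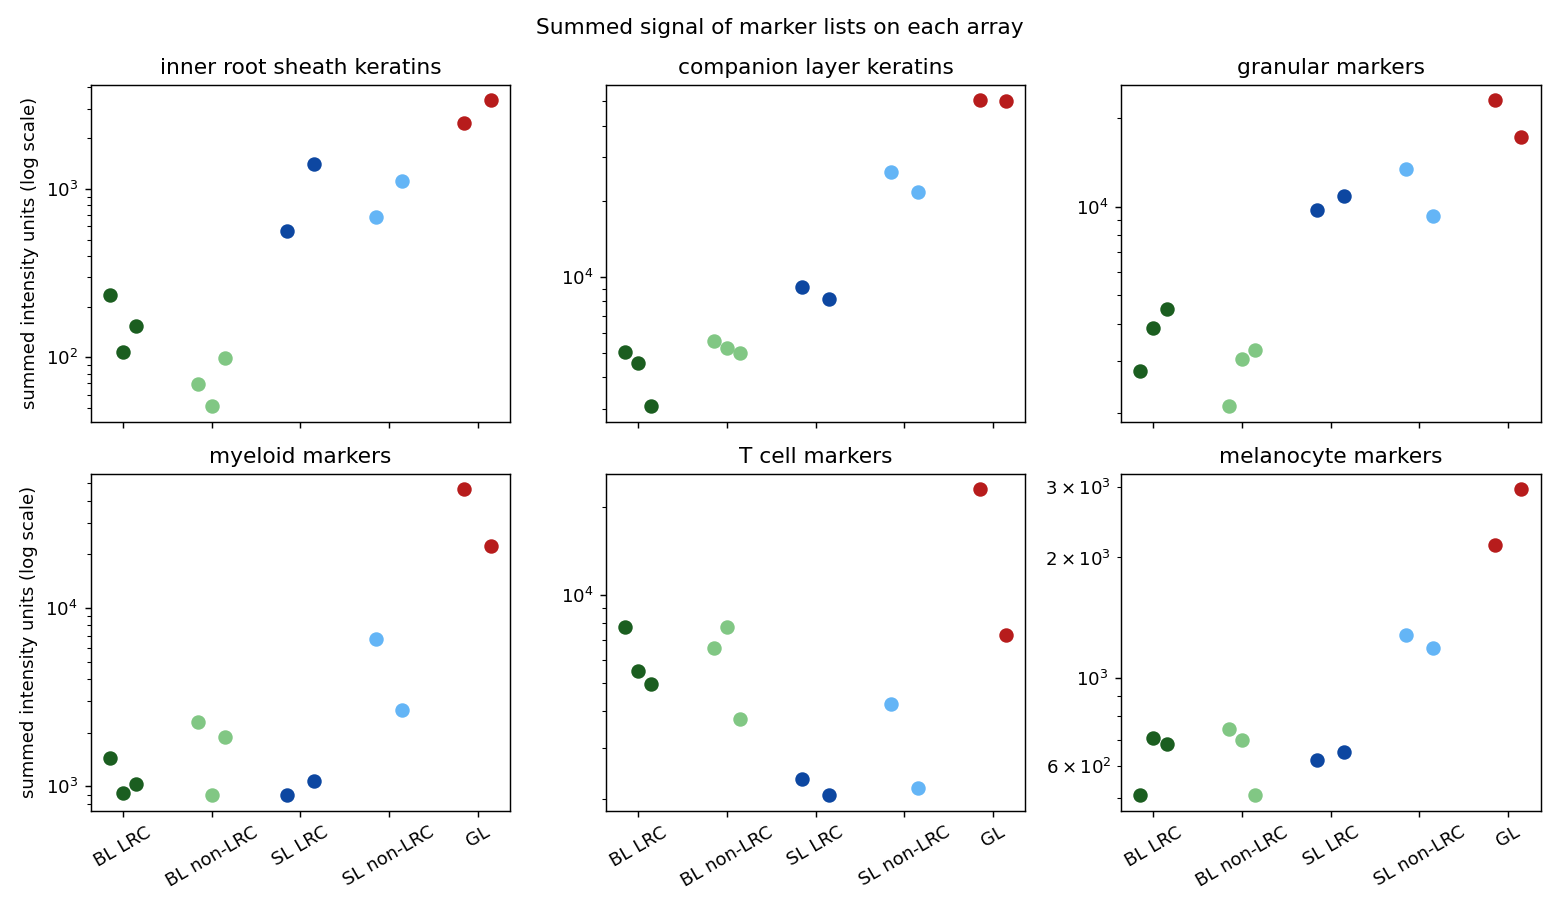
Summed intensity of each list's genes on each array (log axis), by sorted group, 1 point per array. The inner root sheath keratins and the companion layer and outer sheath keratins are both highest in GL, where the myeloid, granular and melanocyte sums are highest as well.

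Label retention within a layer was the comparison that the choice of members did not use. In BL, 0 of 4 members were called, where 1.53% of all genes were, 0.308% as higher and 1.23% as lower. All 4 log2 differences were above 0, though with only the arrays of high BioB signal those of Krt25 and Krt28 were not. Their median was 1.17, against 0.05 over all genes, and Krt27 and Krt28 rest on values below background. The median was 0.37 with log2(value + 32), 0.50 with only the arrays of high BioB signal and 0.59 without BL LRC 1. In SL, 0 of 4 were called, where 4.19% of all genes were, 1.49% as higher and 2.7% as lower, and 2 of 4 differences were above 0, with a median of 0.08 against -0.0013 over all genes. Leaving out 1 array moved that median between -0.73, without SL LRC 2, and 0.88, without SL LRC 1.

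Krt71 in BL had the smallest p of the members there. Its 3 BL LRC arrays, 70.0 to 105 intensity units, were above all 3 BL non-LRC arrays, 8.86 to 49.8, as was so for 8.76% of all genes. The log2 difference was 1.77 ± 0.55 (SE), 3.42-fold, with an adjusted p of 0.162 (limma), and so it did not pass. Without BL non-LRC 2, on which Krt71 was below background, the difference was 1.03. Krt25 differed by 0.48 ± 0.51 in BL (adjusted p = 0.800, limma). Krt27 and Krt28 were below background on all BL arrays, so they have no fold there, and their adjusted p-values were 0.581 and 0.874 (limma).

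Krt28 in SL had the smallest p of the members there. It read 5.90 and 22.7 intensity units in SL LRC, both below background, against 143 and 83.5 in SL non-LRC, so it was at least 2.93-fold lower in SL LRC. Of all genes, 24.2% had both SL LRC arrays below both SL non-LRC arrays. The measured log2 difference was -3.24 ± 1.04 (SE), with an adjusted p of 0.0950 (limma), which did not pass. With log2(value + 32) it was -1.64 and passed (adjusted p = 0.0278, limma), while with the array set as a term, which only the BL arrays can estimate, it was -1.87 (adjusted p = 0.635, limma). Over all the alternatives the adjusted p ranged from 0.0278 to 0.635.

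Other marker lists ran both ways between SL LRC and SL non-LRC. Summed spinous markers were higher in SL LRC, at 104660 to 111741 intensity units, against 65275 to 73532 in SL non-LRC. Krt1, Krt10 and Krt77 of that list were called higher in SL LRC by limma, as were Casp14, Krt24 and Gata3 of other lists. With the array set as a term, Krt1, Krt10, Krt77 and Casp14 were not called. Several lists were lower in SL LRC. Summed companion layer and outer sheath keratins were 8199 to 9138 intensity units in SL LRC and 21718 to 26114 in SL non-LRC. Melanocyte markers summed to 624 to 653 in SL LRC and 1187 to 1281 in SL non-LRC, and myeloid markers to 890 to 1079 and 2664 to 6724 in the same groups. From these lower lists, 2 companion layer or outer sheath, 2 melanocyte and 3 myeloid genes were called lower by limma, where 2.7% of all genes were. With the array set as a term 1, 0 and 1 of them were. Their part in the Krt28 difference was not tested. The other 3 members overlapped between SL LRC and SL non-LRC. Krt25 differed by -0.05 ± 0.63, Krt27 by 0.20 ± 1.33 and Krt71 by 0.58 ± 0.68 (log2, LRC minus non-LRC, SE), with adjusted p-values of 0.986, 0.970 and 0.755 (limma).

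**Figure D3:**
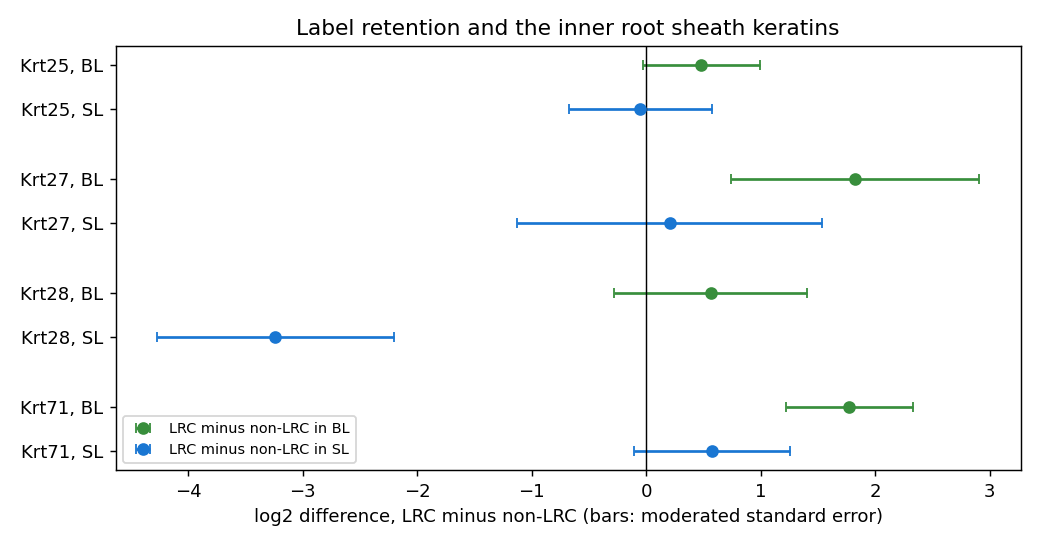
Log2 difference between LRC and non-LRC cells for each inner root sheath keratin in BL and in SL, with its moderated standard error. Krt28 in SL, at -3.24, and Krt71 in BL, at 1.77, lie farthest from 0 in standard errors, and neither passed adjustment over all genes. Krt27 and Krt28 in BL rest on values below background.

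The difference of the label effect between layers, SL minus BL, was tested as an interaction. It was -3.80 ± 1.34 for Krt28 (log2, SE), with an unadjusted p of 0.0116 and an adjusted p of 0.606 (limma). It was -0.53 ± 0.81 for Krt25, -1.62 ± 1.72 for Krt27 and -1.20 ± 0.88 for Krt71, with adjusted p-values of 0.934, 0.895 and 0.839 (limma). None of the 4 was called, and 0% of all genes were, with 1291 genes at an unadjusted p under 0.05. The label effect on the members is therefore not shown to differ between the layers.

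Other genes of the inner root sheath were set beside the members from a list of 12, of which 11 were measured and Krt74 was not analysed here. In SL against BL, 3 rose and 1 fell, where 5.03% of all genes were called, 2.83% as higher and 2.2% as lower. The list's median log2 difference was 0.27, against 0.0025 over all genes. Tchh, trichohyalin, the granule protein that hardens the inner root sheath, rose by 1.83 ± 0.44 on the log2 scale (adjusted p = 0.0194, limma). The call on Tchh was lost without SL LRC 2 (adjusted p = 0.121, limma) and also without SL non-LRC 2.

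Cdsn, corneodesmosin, an adhesion protein of cornifying cells in both sheath and epidermis, rose by 3.20 ± 0.41 in SL (adjusted p = 0.000155, limma). Dlx3, a homeobox factor of hair and epidermal differentiation, rose by 2.08 ± 0.53 (adjusted p = 0.0276, limma). The Dlx3 call was lost in 5 of 12 fits that left out 1 array: BL LRC 1 or 2, SL LRC 1 or 2, or SL non-LRC 1 (adjusted p up to 0.190, limma), and also with the mean of all single-gene probe sets (adjusted p = 0.0892, limma). Tgm3, a transglutaminase that cross-links proteins of sheath and epidermis, fell by 1.11 on the log2 scale in SL (adjusted p = 0.00414, limma).

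Of the other sheath keratins, 3 were measured, and none of them passed the test in either layer comparison. Krt73, a type II keratin of the sheath cuticle, was never above background in BL, and its log2 difference in SL was 2.03 ± 0.81 (adjusted p = 0.202, limma). In GL against SL it was 2.59 ± 1.08 (adjusted p = 0.175, limma). Krt26, a type I sheath keratin, differed by 0.27 ± 0.54 in SL against BL and by 1.44 ± 0.72 in GL against SL (adjusted p = 0.892 and 0.274, limma). Krt72, a further type II cuticle keratin, differed by -0.20 ± 0.80 in SL against BL and by 0.44 ± 1.07 in GL against SL (adjusted p = 0.949 and 0.879, limma).

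In GL against SL, 2 of the 11 other sheath genes rose and 2 fell, where 8.3% of all genes were called, 4.39% as higher and 3.91% as lower. The list's median was 1.44, against -0.03 over all genes. Cdsn rose by 2.34 and Prdm1, which encodes the repressor Blimp1, by 2.73 (adjusted p = 0.0137 and 0.00403, limma). Tgm3 fell by 1.96 and Gata3, a transcription factor of the inner root sheath that epidermal cells also use, by 0.89 (adjusted p = 0.000349 and 0.00188, limma). Without GL 1, the Cdsn, Prdm1 and Gata3 calls were lost (adjusted p = 0.301, 0.0859 and 0.0770, limma), and Cdsn was lost without SL non-LRC 2 and with the array set as a term as well. Between LRC and non-LRC, 0 of the 11 were called in BL. In SL, 1 was, Gata3, which was higher in LRC by 1.31 ± 0.18 (adjusted p = 0.00063, limma).

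Genes of the neighbouring follicle compartments were counted next. Of 5 companion layer and outer sheath keratins, 4 rose in SL over BL and 4 rose in GL over SL: Krt75, Krt6a, Krt16 and Krt17. These comparisons share the SL arrays. Krt75, the companion layer keratin that lies next to the inner root sheath, rose by 3.79 ± 0.70 in SL and by 3.95 ± 0.93 in GL (adjusted p = 0.00309 and 0.0135, limma). Krt6a rose by 3.15 ± 0.31 in SL and by 2.80 ± 0.41 in GL (adjusted p = 1.09e-05 and 0.000405, limma). The GL calls on Krt75 and Krt17 were lost without either GL array (adjusted p up to 0.119 and 0.0961, limma). With the array set as a term the GL call on Krt75 was lost (adjusted p = 0.0511, limma). With the mean of all single-gene probe sets the Krt17 calls were lost in GL and in SL (adjusted p = 0.0675 and 0.457, limma).

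Of the companion layer and outer sheath keratins, 2 had a called label effect in SL. Krt6a was lower in SL LRC by 2.68 on the log2 scale (-2.68 ± 0.48, adjusted p = 0.0037, limma) and Krt17 by 1.08 (-1.08 ± 0.23, adjusted p = 0.0124, limma). The Krt6a call was lost without SL LRC 1 (adjusted p = 0.0773, limma). The Krt17 call was lost without SL LRC 2 or either SL non-LRC array (adjusted p up to 0.159, limma). It was also lost with the mean of all single-gene probe sets (adjusted p = 0.0713, limma) and with the array set, which coincides with the label in SL, as a term (adjusted p = 0.261, limma). The difference between these genes and the members was not tested.

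Of 21 hair shaft genes, 17 were measured. In SL over BL 3 rose, Krt35, Hoxc13 and Foxn1, with a list median of 0.46, and in GL over SL 2 rose, Krt35 and Hoxc13, with a list median of 0.17. Foxn1, a regulator of hair keratin genes, rose by 1.38 ± 0.20 in SL (adjusted p = 0.000427, limma). Foxn1 was already above background on some or all arrays of BL LRC and of BL non-LRC. Whether its rise came from cells of the hair shaft or of the epidermis was not tested. Krt35, an early hair shaft keratin, had log2 differences of 3.43 ± 0.84 in SL and 3.91 ± 1.12 in GL (adjusted p = 0.0222 and 0.0405, limma). Each Krt35 call was lost in 6 of 12 fits that left out 1 array (adjusted p up to 0.101 for SL and 0.346 for GL, limma), in each case for any of the 4 SL arrays. For SL over BL it was also lost without BL LRC 3 or BL non-LRC 2, and for GL over SL without either GL array or with the array set as a term. Hoxc13, a homeobox regulator of hair keratins, rose by 1.52 ± 0.30 in SL and 3.43 ± 0.41 in GL (adjusted p = 0.00554 and 5.44e-05, limma). Of 4 genes listed for the hair matrix of the growing bulb, Wnt10a fell in both comparisons and 0 rose. The SL call on Wnt10a was lost in 7 of 12 fits that left out 1 array (adjusted p up to 0.125, limma). Wnt10a read 791 to 1665 intensity units in BL of this telogen skin, so its signal is not read here as that of a growing bulb.

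**Figure D4:**
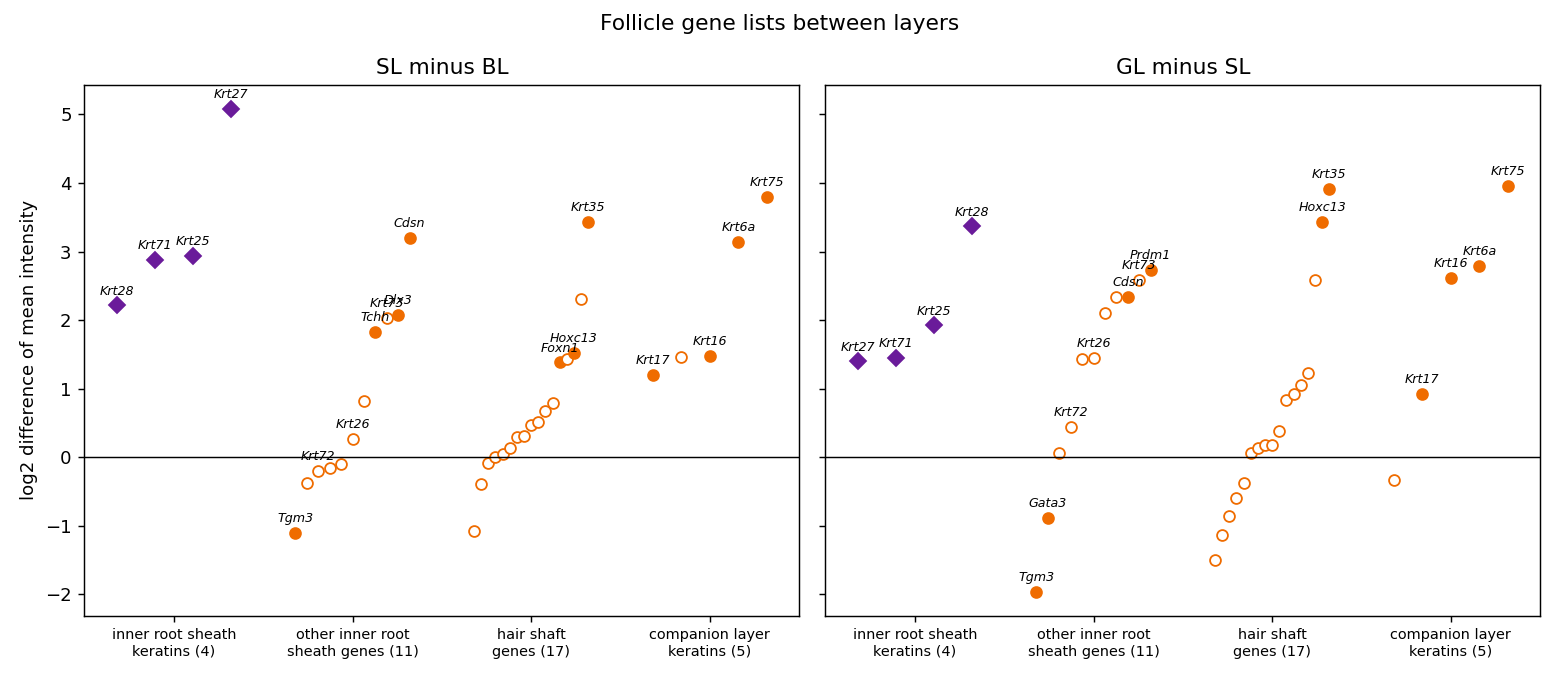
Log2 differences of mean intensity, SL minus BL (left) and GL minus SL (right), 1 point per gene. Filled circles passed the test over all genes and open circles did not, while diamonds are the 4 inner root sheath keratins, which were chosen on these arrays and not tested here. The companion layer and outer sheath keratins Krt75, Krt6a, Krt16 and Krt17 are filled in both panels, while of the hair shaft genes only Krt35 and Hoxc13 are.

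The members lie among other keratin genes on their chromosomes. In the RefSeq order of GRCm38.p6, taken over the measured genes alone, Krt25, Krt26, Krt27 and Krt28 are neighbours on chromosome 11, between Krt24 and Krt10. Krt71 stands between Krt5 and Krt72 on chromosome 15 in that order. Krt74, which was not analysed here, is left out of it. Of 13 measured neighbours, 2 rose in SL over BL (Krt23 and Krt77) and 0 were called in GL over SL by limma, with list medians of 0.16 and 0.07. Krt23, a type I keratin, rose by 2.31 ± 0.51 in SL (adjusted p = 0.0122, limma), and this call was lost without SL LRC 1 or SL non-LRC 1 (adjusted p up to 0.108, limma). Krt77 rose by 0.37 and was not called without SL LRC 1, SL LRC 2 or SL non-LRC 1 (adjusted p up to 0.0943, limma). Krt26, which lies between Krt25 and Krt27, and Krt10, which lies next to Krt28, were not called in either comparison. Krt10 differed by 0.16 in SL against BL and by -0.22 in GL against SL.

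**Figure D5:**
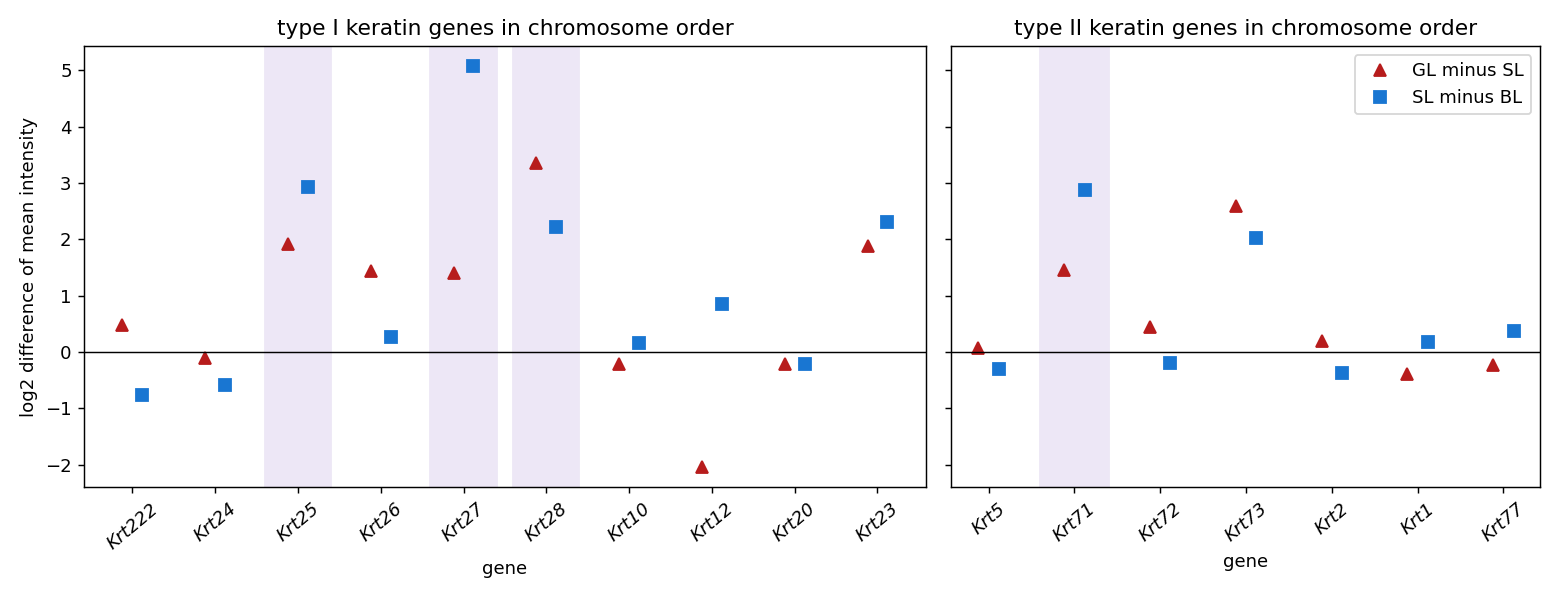
Log2 differences of mean intensity for the measured keratin genes in chromosome order, type I on chromosome 11 (left) and type II on chromosome 15 (right). Triangles are GL minus SL, squares are SL minus BL, and shading marks the 4 members. Krt25, Krt71 and Krt23 stand above 1 in both differences. So do the measured values of Krt27, Krt28 and Krt73, whose SL minus BL squares rest on BL values below background and are not exact, while Krt24, Krt10, Krt5 and Krt1 stay within 1 of 0.

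Over the 12 arrays the members' log2 profiles correlated with each other at Pearson r 0.74 (Krt27 with Krt28) to 0.93 (Krt25 with Krt27). After each group's mean was taken out, r was 0.26 to 0.71. These are descriptions, since the arrays share the groups on which the members were chosen. Genes most like the members were ranked by r with the mean of the 4 standardised profiles, over 12 arrays and 14675 genes above background on at least 4 arrays. The highest was Tubb2b, a beta-tubulin, at r 0.978, followed by Bpifc at 0.968, Gsn, the actin-severing protein gelsolin, at 0.962, Trpv1, a heat-gated ion channel, at 0.961, and Sema4g, a semaphorin, at 0.957. The next were Trib1, a pseudokinase, Rdh12, a retinol dehydrogenase, Asprv1, a protease that cuts profilaggrin, Klk5, a kallikrein of the cornified layer, and Adgrf4, an adhesion receptor, at 0.955 to 0.945. Trpv1 was above background on only 4 arrays, and the Gsn probe set is marked as possibly cross-hybridising.

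Tubb2b read 5463 and 7027 intensity units in GL, 1499 to 3227 in SL and 368 to 808 in BL, so its layers did not overlap. Bpifc read 4457 and 5019 in GL, 1112 to 2032 in SL and 192 to 774 in BL, again with no overlap. Among the genes of the follicle lists, Krt6a ranked 37, the bulge gene Lhx2 44, Krt35 57, Krt75 66 and Tchh 105. Others of these lists ran the opposite way: Wnt10a ranked 14555, Tgm3 14455, the bulge keratin Krt15 14274 and the hair shaft keratin Krt32 14244, with r of -0.86, -0.83, -0.79 and -0.78. The sheath keratins Krt73, Krt26 and Krt72 ranked 638, 1511 and 6212, with r of 0.73, 0.59 and 0.09.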

How the data were processed

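The deposited values are linear intensity values per probe set from 12 arrays; as recomputed here, the authors scaled each array to a 2% trimmed mean of 500.0. Per the labels' protocols, 5 ng of RNA was amplified and biotin-labelled; how probe sets were summarised is not given in the sources used here. Log2 values had been assumed in the design, and since these are linear, log2 was taken with nothing added. Of 45101 probe sets, 34945 map to 1 gene; the 1 of highest mean was kept for each of 18193 genes. A fit of 5 group means was made with limma 3.58.1 (R 4.3.3, eBayes with a mean-variance trend), adjusted by Benjamini-Hochberg at 0.05, and tested on simulated data. Figures used matplotlib 3.10.9. The members and gene lists were chosen with earlier results of these data known. Genes named are the members, genes of the follicle and neighbour lists, up to 4 of the highest mean in other lists (called genes of other lists were named after their values were seen), and the 10 nearest profiles. Alternatives changed the normalisation, scaling, probe set rule, low-value filter, pseudocount, variance prior, block, array set and each array left out. Bulge, sebaceous, spinous and endothelial lists were also counted.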

Additional observations from a re-analysis of the deposited data

How the results depend on the processing

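Members called remained 0 of 4 in BL, in SL and for the interaction under every alternative run, except 1 in SL with log2(value + 32), Krt28. Signs of some uncalled differences turned. Using only arrays of high BioB signal, which could be had for BL alone, LRC minus non-LRC in BL was -0.085 for Krt25 and -0.14 for Krt28, and without BL LRC 1 it was -0.25 for Krt28. In SL, Krt25 was 0.27 with the array-set term, 0.88 without SL LRC 1 and 0.087 without SL non-LRC 2, and Krt27 was -0.48 without SL LRC 2 and -0.97 without SL non-LRC 1. Leaving out 1 array in turn gave up to 1.04 for Krt28 in BL, down to -0.98 for Krt25 and up to 1.38 for Krt27 in SL, and down to -1.47 for the Krt25 interaction. The Krt25 interaction was 0.40 without SL LRC 1. Krt71 in BL ranged from 0.95 to 2.28, with adjusted p 0.0808 to 0.370 (limma). Same-numbered LRC and non-LRC arrays of BL correlated in their deviations from the group means at r 0.13, 0.07 and 0.08. Arrays of unlike number there had r of -0.08 to 0.002, so each array correlated best with its own number. The r of 0.13 is that of number 1, whose arrays are the only BL arrays of low BioB signal. Number and array set cannot be told apart in that value. In SL the same-numbered r was -0.03, and 2 arrays per group give only 1 such value, up to its sign. These values do not settle whether the numbers are pairs. Whether same-numbered samples share a mouse is not stated, so the main fit used no pairs. With the replicate block, 0 members were called, and Krt71 in BL had an adjusted p of 0.154 and Krt28 in SL 0.105 (limma). That block moved the calls over all genes from 279 to 362 in BL and from 763 to 906 in SL, and those of the interaction to 4.

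Other sheath genes called higher in SL over BL were 3, but 1 without the mean-variance trend and 1 to 3 when 1 array was left out. In GL over SL they were 2, but 4 with log2(value + 32), 1 without the trend, 1 with the array-set term and 0 to 3 when 1 array was left out. Hair shaft genes in GL over SL were 2, but 1 without the trend, 1 with the array-set term and 1 to 2 when 1 array was left out. Companion layer and outer sheath keratins in GL over SL were 4, but 2 without the trend and 2 to 4 when 1 array was left out. Without the trend, calls over all genes were 72 in BL, 150 in SL, 374 in SL over BL and 713 in GL over SL, against 279, 763, 915 and 1510. With the array-set term those in SL were 320. Centring arrays on their medians moved the median of all genes in BL to -0.19 and the split of higher to lower calls to 22 and 424, against 56 and 223. It gave 126 and 566 in SL, against 271 and 492, 551 and 237 in SL over BL, against 515 and 400, and 595 and 892 in GL over SL, against 799 and 711. Of the calls on genes of the lists, those lost without the trend were 15 of 31 in SL over BL (Krt75 among them, adjusted p = 0.0653, limma), 12 of 34 in GL over SL, 8 of 12 in BL and 17 of 24 in SL. With the mean of all single-gene probe sets 7, 2, 3 and 4 of them were lost, and with the array-set term 1, 8, 0 and 10. The cause of these moves was not tested. Signal near background limits Krt27 and Krt28 in BL and Krt28 in SL LRC to bounds.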

Other observations

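Genes of the lists that hold other follicle compartments were counted beside the members. Of 9 bulge genes, 5 rose in SL over BL, while in GL over SL 4 rose and 1, Krt15, fell by 0.61 on the log2 scale (adjusted p = 0.0114, limma). The call on Nfatc1 in SL was lost in 9 of 12 fits that left out 1 array (adjusted p up to 0.148, limma) and with the mean of all single-gene probe sets (adjusted p = 0.816, limma). The Krt15 call was lost without SL LRC 1 or GL 1 (adjusted p up to 0.154, limma), and the GL call on Foxc1 in 3 such fits. Of 8 upper follicle and sebaceous genes, 8 were lower in LRC in BL and 7 in SL. The BL call on Scd1 (adjusted p = 0.0496, limma) was lost in 9 of 12 fits that left out 1 array and under 5 other settings, and that on Plet1 in 2 such fits. In SL the calls on Cidea, Pparg and Krt79 were lost in 3, 2 and 1 of those fits (adjusted p up to 0.275, 0.144 and 0.0502, limma). The stem cell factor Lhx2 rose by 2.10 ± 0.19 in SL and by 3.14 ± 0.26 in GL (log2, SE, adjusted p = 7.21e-06 and 1.95e-06, limma). Sox9, a factor of bulge and outer sheath, rose by 1.29 ± 0.15 in SL and 2.03 ± 0.20 in GL (adjusted p = 4.69e-05 and 7.76e-06, limma), and its SL call was lost with the mean of all single-gene probe sets (adjusted p = 0.384, limma). Of 4 spinous genes, 2 rose in SL over BL and 0 in GL over SL, and of 3 endothelial genes 0 were called in either comparison by limma. On the Gapdh control, the 3′ minus 5′ log2 difference was 1.22 on GL 1 and 0.68 on GL 2, the highest and the lowest of the 12 arrays. On the beta-actin control it was -0.07 on GL 1 and -0.05 on GL 2. In the same order, Krt25 read 924 and 1371 intensity units, Krt71 814 and 1035, and Krt27 236 and 672, while Krt28 read 477 and 282. The relation of these controls to the members was not tested.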
